A study of Homo sapiens with 6 samples.

Results

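The genes described here form the network of the transcription factor ATF4, with the amino acid response that it drives. The list names 36 genes, among them ATF4 and its regulators, stress effectors that it induces, and enzymes for the synthesis of asparagine, serine, one-carbon units, proline, cysteine and arginine. Of these, 35 had a probe set that the platform annotation assigns to 1 gene symbol, out of 19775 genes with such a probe set, and GPT2 was not analysed here. Each gene was read from 1 probe set, the one with the highest mean over the 6 arrays. The genes were chosen by their known place in the pathway and, for some of them, selected on high values on aligned fibers against random fibers in these same arrays. Their aligned minus random values, and the limma calls given for them, are therefore a description and not a test of the members.

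The 6 arrays came from U251MG, an established human glioma cell line, grown for 24 h on nanofibers electrospun from poly-caprolactone, a polyester. The fibers were highly aligned in 3 cultures, and in the other 3, described as independent in the same way, they lay in random orientations. All cells grew on 60 mm dishes in DMEM with 10% fetal bovine serum and antibiotics and had no other treatment. The design asked which genes go with the topography of the substrate, and cultures on a flat surface were not analysed here. One cell line gives no spread between tumours, and a bulk array cannot tell fewer cells with a transcript from less transcript per cell.

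ATF4 is a basic leucine zipper factor whose protein is made mainly when the initiation factor eIF2 is phosphorylated on its alpha subunit. The kinases that do this sense uncharged tRNA, misfolded protein in the endoplasmic reticulum, double-stranded RNA or lack of heme. ATF4 then pairs with C/EBP proteins on composite elements of its targets, which supply amino acids, charge tRNA and, when stress lasts, damp translation and growth. Since ATF4 is controlled in translation, its mRNA is not a measure of its protein, and no protein was measured here.

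Array aligned 3 stood apart from the other 5. Over the 12381 genes that passed a filter on dim probe sets, it deviated from the average random array by 0.38 log2 units (root mean square), while the other aligned arrays deviated by 0.17 and 0.19. Ribosomal 18S RNA read 8.53, 9.05 and 9.78 on aligned fibers and 8.40, 9.14 and 8.78 on random fibers, highest in the same array, and the part of this in the results was not tested. Of 8 astroglial and glioma markers, 6 (VIM, NES, CD44, EGFR, SOX9 and FABP7) lay above the array median on all 6 arrays, whereas GFAP and S100B did not. FABP7, a fatty acid binding protein of glia, read 12.36, 11.86 and 10.39 on aligned fibers, against 12.50, 12.45 and 12.35 on random fibers. Of 16 markers of 5 other cell types on the array, 7 lay below the median on all arrays, including PTPRC, CDH5, EPCAM and MOG, and 7 lay above it on all arrays, including KRT18 and SNAP25. The mean log2 level of those 16 was between 5.59 and 5.62 on aligned fibers and between 5.49 and 5.52 on random fibers, and its part in the results was not tested.

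Most of the network read higher on aligned fibers. Of the 35 genes, 33 had a positive difference, with a median of 0.64 log2 units, beside a median of 0.03 over all 19775 genes, of which 58% were positive. The 11 genes at 1 log2 unit or more, a doubling, were GDF15, CHAC1, CTH, ASS1, CBS, NUPR1, PCK2, SESN2, ASNS, PPP1R15A and STC2. At the other end, 10 genes differed by less than 0.2 in either direction, namely EIF2AK4, EIF2S1, ATF5, VLDLR, SHMT1, MTHFD1, MTHFD1L, ALDH1L2, ALDH18A1 and GOT1. Without aligned 3 the median was 0.39, and 32 genes had a positive difference.

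No gene of the array passed limma with Benjamini-Hochberg adjustment, so none of the 32 members past the filter did, and the lowest adjusted p over all 12381 genes was 0.463. At an unadjusted p under 0.05 the background was 4.72% of genes higher and 5.81% lower on aligned fibers. Of the 32 members 21 were among the higher and 0 among the lower, a count from which nothing is read because the same contrast helped to choose them. With the replicate number as a block it was 18 higher and 0 lower, where the background was 6.32% higher and 7.3% lower. The block took ATF4, ATF3, STC2, BCAT1 and XPOT out of that count and brought in ATF5 and DDIT3. Without a block and without random 2 it was 6, and without random 3 it was 3. Over all 12381 genes, in both directions, those fits called 739 and 624, against 1303 with all arrays. In 11 of the 35 genes all 3 aligned arrays lay above all 3 random arrays, where the background was 9.08% of all genes, and in 0 genes below them, where it was 6.88%. In a further 14 genes aligned 2 and aligned 3 lay above all random arrays and aligned 1 did not, as in 10.6% of all genes. Of the network 3 genes lay below the filter on dim probe sets, namely SHMT1, MTHFD1L and ALDH1L2.

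**Figure D1:**
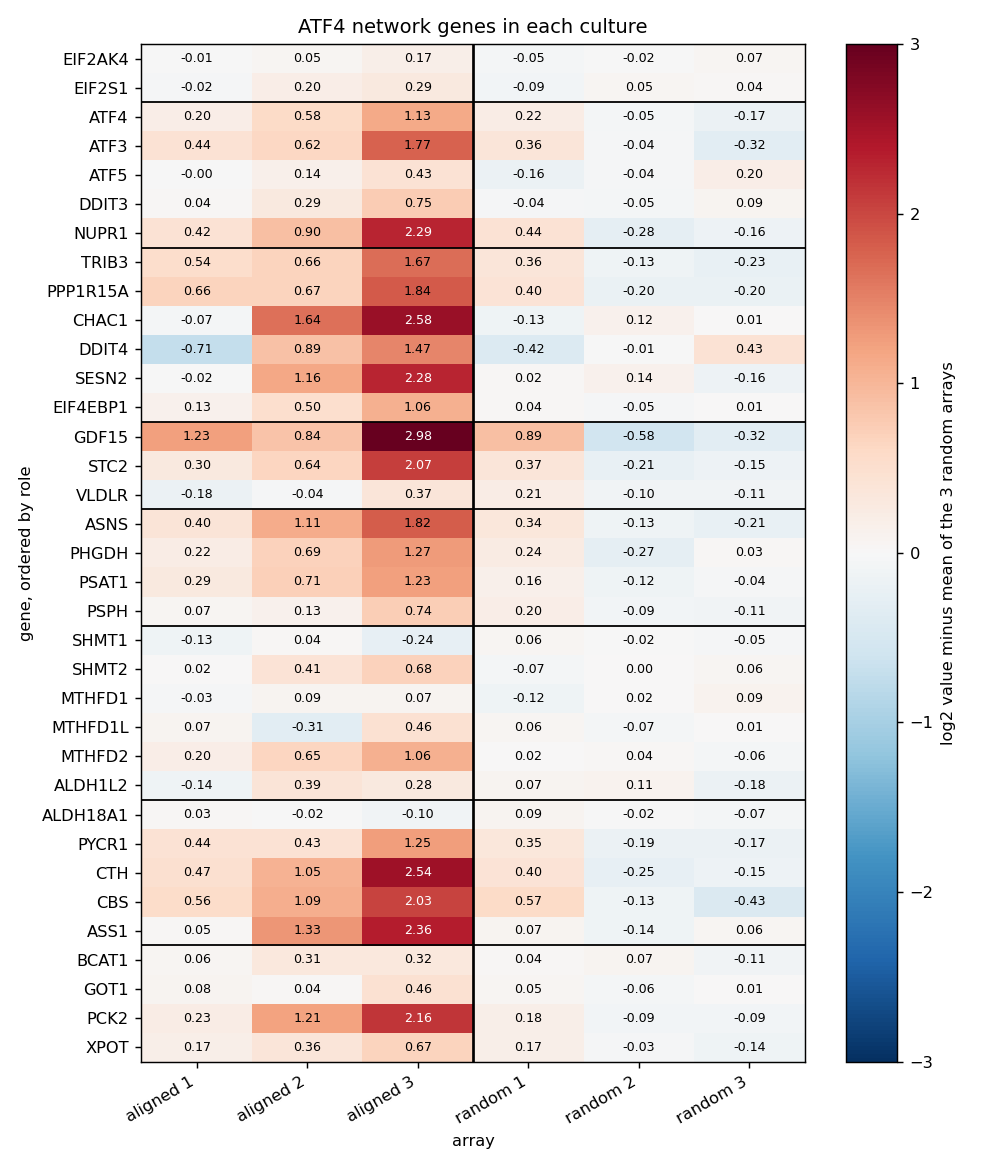
Each cell gives a gene's log2 value on one array minus its mean over the 3 random arrays, for the 35 genes ordered by role (horizontal lines part the roles), with aligned arrays left of the vertical line and random arrays right of it. Aligned 3 is the highest of the 6 arrays in 31 of the 35 genes.

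The 3 cultures on aligned fibers did not share 1 level of the network. Some genes were selected on high aligned values in these same arrays, so the shares below are a description and not a test. Between the arrays numbered 1 the median difference was 0.04, between those numbered 2 it was 0.62 and between those numbered 3 it was 1.13, beside 0.01, 0.00 and 0.06 over all genes on the array. Aligned 1 lay above random 1 in 22 genes (62.9%), against 52.7% of all genes, and below it in 13, ATF4 itself included. Between these 2 arrays 30 of the 35 (85.7%) differed by less than 0.2 in size, a share near the 83.5% of all genes. Aligned 2 lay above random 2 in 34 genes (97.1%, against 50.4% of all genes), with MTHFD1L as the exception. Aligned 3 lay above random 3 in 32 (91.4%, against 59.3%), with SHMT1, MTHFD1 and ALDH18A1 as exceptions. Aligned 3 was the highest array in 31 of the 35 genes (88.6%), against 30.7% of all genes on the array. The spread between aligned arrays exceeded that between random arrays in 33 genes (94.3%), against 55.7% of all genes.

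**Figure D2:**
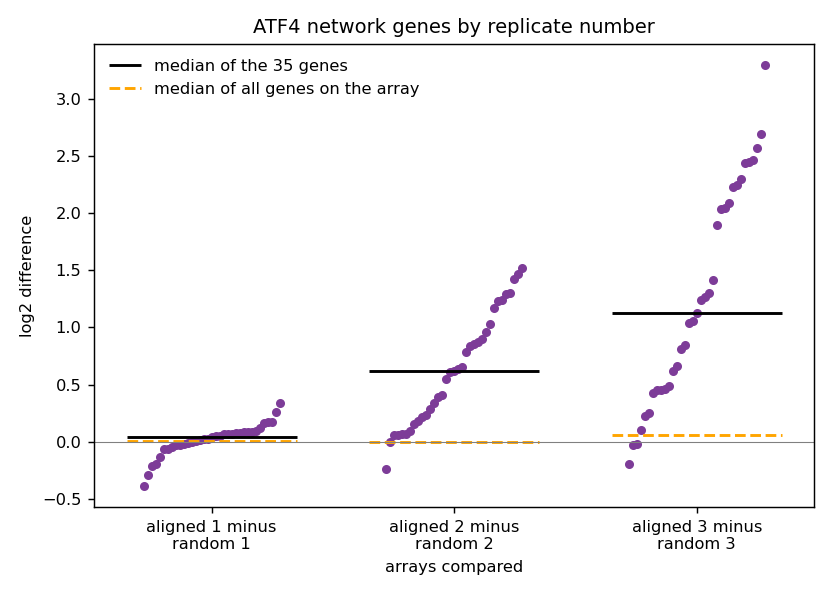
Each point is 1 of the 35 genes, and the vertical axis gives the log2 difference between the aligned and the random array of the same replicate number; solid lines are medians of the 35 genes and dashed lines medians of all genes on the array. The 35 points crowd near 0 for number 1, with a median of 0.04, and reach up to 3.30 for number 3.

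The random cultures differed among themselves as well. Their values are part of the contrast on which some genes were selected, so the counts below are a description. Random 1 was the highest random array in 23 of the 35 genes (65.7%), against 31.6% of all genes. In 10 genes it exceeded the mean of random 2 and random 3 by more than 0.5 log2 units, which 0.976% of all genes did. These were GDF15 at 1.34, CBS at 0.85, NUPR1 at 0.65, PPP1R15A and CTH at 0.60 each, STC2, TRIB3 and ATF3 at 0.55, 0.55 and 0.54, PYCR1 at 0.53 and ASNS at 0.52. Not all targets followed this pattern within the random group: CHAC1 was lower on random 1 than on the mean of the other random arrays, by -0.19, and DDIT4 by -0.63.

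Of the regulators upstream of ATF4, the list holds EIF2S1 and EIF2AK4, which differed by less than 0.2 in mRNA. EIF2S1, the alpha subunit of eIF2, read 11.14, 11.37 and 11.45 on aligned fibers and 11.08, 11.22 and 11.21 on random fibers, a difference of 0.15 ± 0.10 log2 units (SE, n = 3 each) that was 0.09 without aligned 3. EIF2AK4, the kinase GCN2 that binds uncharged tRNA, read 8.23, 8.29 and 8.41 on aligned and 8.19, 8.22 and 8.30 on random fibers, a difference of 0.07 ± 0.08 that was 0.02 without aligned 3. The values of the groups overlapped in both genes. A dimmer probe set of EIF2AK4 that did not pass the filter differed by 0.35.

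Among the transcription factors, ATF4, ATF3 and NUPR1 had the widest differences. The single probe set of ATF4 read 11.39, 11.77 and 12.32 on aligned fibers, against 11.41, 11.14 and 11.02 on random fibers. Its difference was 0.64 ± 0.23 (SE), or 1.55-fold, with aligned 1 level with random 1, and it was 0.39 without aligned 3. ATF3, a stress-induced factor of the same family, read 8.45, 8.62 and 9.77 on aligned and 8.37, 7.97 and 7.68 on random fibers. All of its aligned values exceeded the random ones, by 0.94 ± 0.34 on average, and by 0.53 without aligned 3. NUPR1, a small stress-induced chromatin cofactor, read 7.62, 8.09 and 9.49 on aligned and 7.63, 6.92 and 7.03 on random fibers. Its difference of 1.20 ± 0.45 became 0.66 without aligned 3. DDIT3, the factor CHOP that acts in lasting stress, differed by 0.36, and ATF5, the close relative of ATF4 by 0.19, each with overlapping groups, and by 0.16 and 0.07 without aligned 3. The 4 probe sets of ATF5 lay between 0.03 and 0.19.

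**Figure D3:**
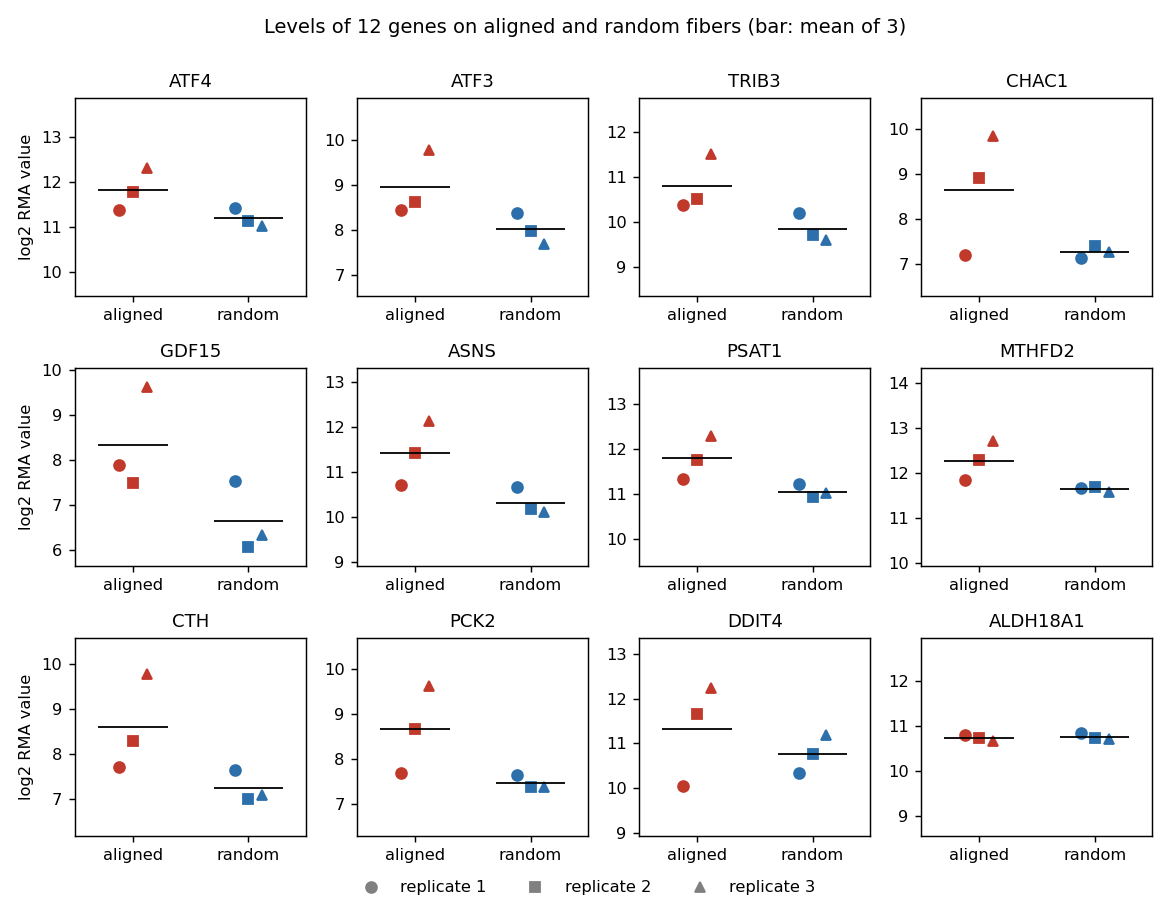
Log2 RMA values of 12 genes of the network on the 3 aligned arrays (red) and the 3 random arrays (blue), with the marker shape giving the replicate number and the bar the mean of 3; every panel spans the same number of log2 units. The aligned circle lies close to the random circle in CHAC1, PCK2 and ASNS, and the aligned triangle is the highest point in every panel but ALDH18A1.

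The feedback and stress effectors had a median difference of 1.01, and 0.58 without aligned 3. CHAC1, which degrades glutathione, read 7.20, 8.91 and 9.85 on aligned fibers, against 7.14, 7.39 and 7.28 on random fibers. Aligned 1 thus lay within the random range and the other 2 aligned arrays far above it. The mean difference was 1.39 ± 0.58 (SE), or 2.62-fold, with 0.79 without aligned 3 and 2.11 without aligned 1. SESN2, an inhibitor of the growth kinase complex mTORC1 that binds leucine, had the same shape, with 8.06, 9.25 and 10.36 on aligned and 8.11, 8.22 and 7.92 on random fibers. Its second probe set differed by 1.09, beside 1.14 for the first, which was 0.57 without aligned 3. DDIT4, another inhibitor of mTORC1, which is given here because its values were seen to depart from this shape, read 10.06, 11.66 and 12.24 on aligned and 10.35, 10.76 and 11.20 on random fibers. Its lowest value on either substrate was that of the culture numbered 1, and its difference of 0.55 ± 0.51 became 0.09 without aligned 3.

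In the other 3 effectors the groups did not overlap. TRIB3, a pseudokinase that restrains ATF4, read 10.39, 10.50 and 11.51 on aligned fibers, against 10.21, 9.72 and 9.61 on random fibers. PPP1R15A, the subunit GADD34 that directs a phosphatase to eIF2, read 8.63, 8.65 and 9.82 on aligned and 8.38, 7.77 and 7.78 on random fibers. EIF4EBP1, a repressor of cap-dependent translation, read 10.47, 10.84 and 11.40 on aligned and 10.39, 10.30 and 10.35 on random fibers. The differences of TRIB3, PPP1R15A and EIF4EBP1 were 0.95 ± 0.30, 1.06 ± 0.33 and 0.56 ± 0.21 (SE, n = 3 each). Without aligned 3 they were 0.60, 0.67 and 0.31.

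Of the secreted products, GDF15, a cytokine released by stressed cells, had the widest difference of the network. It read 7.88, 7.49 and 9.62 on aligned fibers, against 7.54, 6.07 and 6.33 on random fibers, so that random 1 lay above aligned 2. The difference was 1.69 ± 0.59 (SE), or 3.22-fold, and 1.04 without aligned 3. It came from a probe set whose suffix marks possible cross-hybridisation, and the 2 dim probe sets of the gene differed by 0.21 and 0.25. STC2, a secreted glycoprotein, read 7.05, 7.39 and 8.82 on aligned and 7.12, 6.54 and 6.60 on random fibers, a difference of 1.01 ± 0.43 that was 0.47 without aligned 3. VLDLR, a lipoprotein receptor, differed by 0.05 ± 0.16, and by -0.11 without aligned 3.

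The enzymes of asparagine and serine synthesis had a median difference of 0.73, and 0.48 without aligned 3. ASNS, which makes asparagine from aspartate, read 10.72, 11.43 and 12.14 on aligned fibers, against 10.66, 10.19 and 10.11 on random fibers. The groups did not overlap, though aligned 1 and random 1 lay 0.05 apart, and the difference was 1.11 ± 0.33 (SE), or 2.16-fold. A dim second probe set of ASNS differed by 0.20. Of the serine pathway, PHGDH, which opens it, read 12.06, 12.53 and 13.11 on aligned and 12.09, 11.57 and 11.87 on random fibers. PSAT1, its second enzyme, read 11.34, 11.76 and 12.28 on aligned and 11.21, 10.93 and 11.01 on random fibers. PHGDH and PSAT1 differed by 0.73 ± 0.26 and 0.74 ± 0.22, and PSPH, the phosphatase that ends the pathway, by 0.31 ± 0.19 with overlapping groups. Without aligned 3 these 3 were 0.45, 0.50 and 0.10. The 2 probe sets of PSPH past the filter differed by 0.31 and 0.45, and another, dim one by -0.30. Averaged over its probe sets, PSPH differed by 0.16.

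Promoter sequence was read for the composite element at which ATF4 and C/EBP factors bind. Targets of ATF4 are known in part through this element, so its share among the members is not independent of how they were chosen, and nothing is read from it. The letters TGATGNAA, with N for any base, were searched on both strands in RefSeq windows (GRCh38.p14) from 250 bases before to 50 bases after each transcript start. Of 29 members with a window, 6 held a match (20.7%), against 4.46% of 27305 genes, which includes genes that these cells may not express. A gene can have several windows, and 17.0% of the 47 windows of members and 3.62% of all 35116 windows held a match. The windows of ALDH1L2, EIF4EBP1, GPT2, NUPR1, PSPH, PYCR1 and SHMT2 were not used. The 6 genes were CHAC1, ASNS, ATF3, BCAT1, GOT1 and MTHFD1L, whose differences ranged from 0.07 to 1.39 with a median of 0.59. The 23 members without a match had a median of 0.64, within a range of -0.11 to 1.69. A match is a run of letters and not a measured site.

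The 2 genes with a match and the widest differences, CHAC1 and ASNS, are shown with the 250 bases before their start, to place the element in its promoter. The match is in capitals, and both sequences run 5′ to 3′ on the strand of the gene. The window of CHAC1 is chr15:40953221-40953470 on the plus strand and that of ASNS is chr7:97872409-97872658 on the minus strand, both upstream of an annotated transcript start.
CHAC1: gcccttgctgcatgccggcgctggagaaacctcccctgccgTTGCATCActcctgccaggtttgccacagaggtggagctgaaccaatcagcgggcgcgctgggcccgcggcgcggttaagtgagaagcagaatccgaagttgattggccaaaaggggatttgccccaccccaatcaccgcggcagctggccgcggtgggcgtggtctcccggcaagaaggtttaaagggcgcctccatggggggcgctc
ASNS: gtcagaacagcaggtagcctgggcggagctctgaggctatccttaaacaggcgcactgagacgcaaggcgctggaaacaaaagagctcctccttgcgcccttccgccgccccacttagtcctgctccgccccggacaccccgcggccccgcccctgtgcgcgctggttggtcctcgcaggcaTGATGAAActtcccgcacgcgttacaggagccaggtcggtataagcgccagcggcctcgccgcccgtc
In CHAC1 the match lay at positions -209 to -202 from the start, on the opposite strand, and in ASNS at -68 to -61 on the strand of the gene.

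For comparison, the matches of the next 3 genes are given with 30 bases on each side. They lie at chr1:212565186-212565253 (plus strand) for ATF3, chr12:24949112-24949179 (minus strand) for BCAT1 and chr10:99430785-99430852 (minus strand) for GOT1.
ATF3: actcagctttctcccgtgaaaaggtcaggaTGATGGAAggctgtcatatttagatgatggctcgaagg
BCAT1: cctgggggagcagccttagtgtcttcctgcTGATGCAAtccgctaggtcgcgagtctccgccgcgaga
GOT1: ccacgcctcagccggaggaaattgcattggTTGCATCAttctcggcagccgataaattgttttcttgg
The match in ATF3 belongs to 1 of its 2 windows, at -191 to -184, that of BCAT1 to 1 of 5 windows, at -48 to -41, and that of GOT1 lies at -198 to -191. The free letter of the match reads G in ATF3 and C in BCAT1 and GOT1, with that of GOT1 on the opposite strand. BCAT1 and GOT1 differed by 0.23 and 0.19 between substrates, and ATF3 by 0.94.

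In one-carbon metabolism the widest differences were those of the mitochondrial enzymes MTHFD2 and SHMT2. MTHFD2, the mitochondrial methylene-tetrahydrofolate dehydrogenase, read 11.84, 12.29 and 12.71 on aligned fibers, against 11.67, 11.69 and 11.58 on random fibers. Its aligned values all lay above the random ones, by 0.64 ± 0.20 (SE), or 1.55-fold, and by 0.42 without aligned 3. SHMT2, the mitochondrial serine hydroxymethyltransferase, read 11.09, 11.48 and 11.75 on aligned and 11.00, 11.07 and 11.13 on random fibers, a difference of 0.37 ± 0.16 with overlap of aligned 1 alone, and of 0.22 without aligned 3. MTHFD1, the trifunctional cytosolic folate enzyme, differed by 0.04 ± 0.08. SHMT1, the cytosolic counterpart of SHMT2, and the mitochondrial MTHFD1L and ALDH1L2 were dim on these probe sets, with mean values of 5.17, 3.83 and 4.33 on aligned and 5.28, 3.75 and 4.15 on random fibers.

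The genes of cysteine and arginine synthesis all had differences above 1 log2 unit. CTH, which releases cysteine from cystathionine, read 7.71, 8.28 and 9.78 on aligned fibers, against 7.64, 6.99 and 7.08 on random fibers. CBS, the enzyme before it, read 8.34, 8.87 and 9.81 on aligned and 8.35, 7.64 and 7.35 on random fibers. ASS1, which builds argininosuccinate, read 7.18, 8.46 and 9.49 on aligned and 7.20, 6.99 and 7.19 on random fibers. The differences were 1.35 ± 0.48, 1.23 ± 0.39 and 1.25 ± 0.50 (SE, n = 3 each), and 0.76, 0.83 and 0.69 without aligned 3. In CBS and ASS1 aligned 1 lay within the random range, and in CTH it was the lowest aligned value but still above random 1. The 3 probe sets of CBS differed by 0.31 to 1.23. Whether the probes of CBS and ASS1 also bind related sequences elsewhere was not tested.

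Of proline synthesis, the first and the last step were measured. PYCR1, which makes proline in the last step, read 9.13, 9.12 and 9.94 on aligned fibers, against 9.04, 8.50 and 8.52 on random fibers, a difference of 0.71 ± 0.25 (SE) that was 0.44 without aligned 3. ALDH18A1, which opens the pathway, stayed between 10.66 and 10.79 on aligned and between 10.70 and 10.85 on random fibers, a difference of -0.03 ± 0.08. Its 2 probe sets differed by -0.03 and 0.00.

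PCK2, the mitochondrial enzyme that makes phosphoenolpyruvate, read 7.69, 8.67 and 9.61 on aligned fibers, against 7.64, 7.37 and 7.37 on random fibers. The groups were apart by 0.05 between aligned 1 and random 1 and by far more in the other cultures, with a mean difference of 1.20 ± 0.42 (SE), or 2.30-fold, and 0.72 without aligned 3. XPOT, which exports tRNA from the nucleus, read 11.40, 11.59 and 11.90 on aligned and 11.40, 11.20 and 11.09 on random fibers, with aligned 1 above random 1 by 0.01. BCAT1, the transaminase of branched-chain amino acids, read 11.35, 11.60 and 11.61 on aligned and 11.32, 11.36 and 11.18 on random fibers. XPOT and BCAT1 differed by 0.40 ± 0.14 and 0.23 ± 0.10, and GOT1, the cytosolic aspartate transaminase, by 0.19 ± 0.12 with overlapping groups. Without aligned 3 these 3 were 0.27, 0.19 and 0.06.

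**Figure D4:**
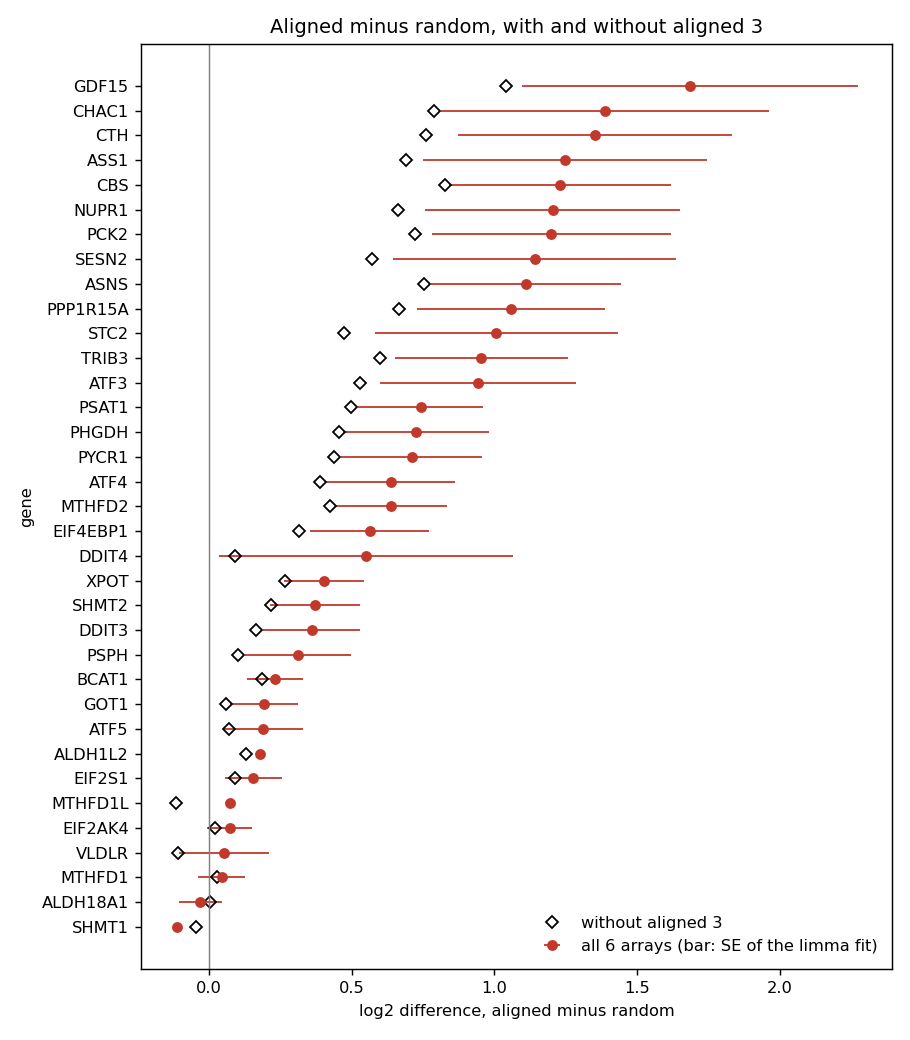
Log2 difference, aligned minus random, of the 35 genes from all 6 arrays (red points, bar: SE of the limma fit, drawn for the 32 genes past the filter) and without aligned 3 (open diamonds). Among the 11 genes at 1 or more, the values without aligned 3 lie between 0.47 for STC2 and 1.04 for GDF15.

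Of the 21 members at an unadjusted p under 0.05, 17 shrank by more than 1.5 times without aligned 3, and ASNS, PSAT1, CBS and BCAT1 did not. Leaving out aligned 1 enlarged CHAC1 by more than that factor, and no such change followed from leaving out aligned 2 or any random array. Of the 16 members with several probe sets past the filter, all had 1 sign over them.

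Genes that work beside the network were taken from 7 lists. Cytosolic aminoacyl-tRNA synthetases, which charge tRNA, were positive in 17 of 17 measured genes with a median difference of 0.34, and 0.26 without aligned 3. Of these, 10 were at an unadjusted limma p under 0.05, all higher. GARS1, IARS1, SARS1 and CARS1, of glycine, isoleucine, serine and cysteine, differed by 0.61 ± 0.18, 0.34 ± 0.10, 0.58 ± 0.18 and 0.48 ± 0.15 (SE). Without aligned 3 they differed by 0.44, 0.28, 0.40 and 0.33. Amino acid transporters were positive in 11 of 11 genes with a median of 0.50, and 0.34 without aligned 3. Of the 10 past the filter, 9 were at that p, all higher. SLC7A11, the cystine carrier, differed by 0.30 ± 0.09, the glutamine carrier SLC38A1 by 0.61 ± 0.19, and SLC7A5 with its heavy chain SLC3A2 by 0.88 ± 0.30 and 0.62 ± 0.21, which were 0.56 and 0.39 without aligned 3. With the replicate block 10 synthetases and 6 transporters were at that p, all higher, and SLC7A5 was not among them. Both lists hold known ATF4 targets, and the background for a positive call was 4.72% of genes, or 6.32% with the block.

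The lists for the regulation of eIF2 and for the other branches of the unfolded protein response had medians below that of the network. Of 13 genes for the remaining eIF2 kinases, phosphatase and eIF2B subunits, 10 had a positive difference, with a median of 0.13. In limma 0 were called at the unadjusted p, where the background was 4.72% of genes higher and 5.81% lower. The gene with the smallest p, EIF2S2, differed by 0.22 ± 0.10 (SE), and by 0.16 without aligned 3. EIF2AK3, the kinase PERK of the endoplasmic reticulum, differed by -0.32, and by -0.20 without aligned 3. With the replicate block 4 of the 13 were called, where the background was 6.32% of genes higher and 7.3% lower. EIF2AK3 was lower. The eIF2B subunits EIF2B2 and EIF2B3 and IMPACT, an inhibitor of GCN2, were higher, at differences of 0.19, 0.30 and 0.29. Without aligned 3 those of EIF2B3 and IMPACT were 0.15 each. Of 13 genes of the IRE1 and ATF6 branches of the unfolded protein response, 9 were negative with a median of -0.31, which was -0.05 without aligned 3. In this list ERN1, the sensor IRE1, differed by 0.54 ± 0.21 (SE), the factor XBP1 by 0.58 ± 0.25 and ATF6 by 0.17 ± 0.10, and without aligned 3 they differed by 0.28, 0.31 and 0.08. The chaperone HSP90B1 differed by -0.75 ± 0.44, by -0.29 without aligned 3 and by -1.24 without aligned 1. In the fit without a block 1 gene of the list, ERN1, was at the unadjusted p and higher, against the background of 4.72%. With the replicate block ERN1 was no longer at that p, which left 0 genes higher, and 4 were lower, namely HSP90B1, DNAJC3, SDF2L1 and HYOU1. The last 3, which serve protein folding in the endoplasmic reticulum, differed by -0.50, -0.41 and -0.33, and by -0.21, -0.17 and -0.13 without aligned 3. The background for a lower call with the block was 7.3% of genes.

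Leucine zipper factors listed as partners of ATF4 went in both directions. JDP2 read 6.71, 7.40 and 8.78 on aligned fibers and 6.71, 6.25 and 6.14 on random fibers, a difference of 1.26 ± 0.47 (SE) that was 0.69 without aligned 3. CEBPG, a C/EBP protein that pairs with ATF4, differed by 0.60 ± 0.20 and CEBPB by 0.44 ± 0.20, and without aligned 3 by 0.37 and 0.22. CEBPD read 7.40, 7.45 and 7.34 on aligned and 7.69, 7.73 and 8.05 on random fibers, a difference of -0.43 ± 0.11. Of these 8 partners 2 were at the unadjusted limma p higher and 1 lower, where the background was 4.72% and 5.81% of genes. With the replicate block 3 were higher, with CEBPB and FOS in and JDP2 out, and 1 was lower. The background with the block was 6.32% and 7.3%. Folate and methionine enzymes outside the network had a median of -0.01 over 9 genes, 0 of them at that p, with TYMS, the thymidylate synthase, at -0.20 ± 0.08. Glutathione and NRF2 targets had a median of 0.14 over 7 genes, or 0.07 with the probe sets of each gene averaged. In the fit without a block 3 of them were at that p and higher, against the background of 4.72%. These were TXNRD1 at 0.40 ± 0.11, SRXN1 at 0.32 ± 0.11 and HMOX1 at 0.46 ± 0.17. Without aligned 3 they were at 0.38, 0.22 and 0.33.

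**Figure D5:**
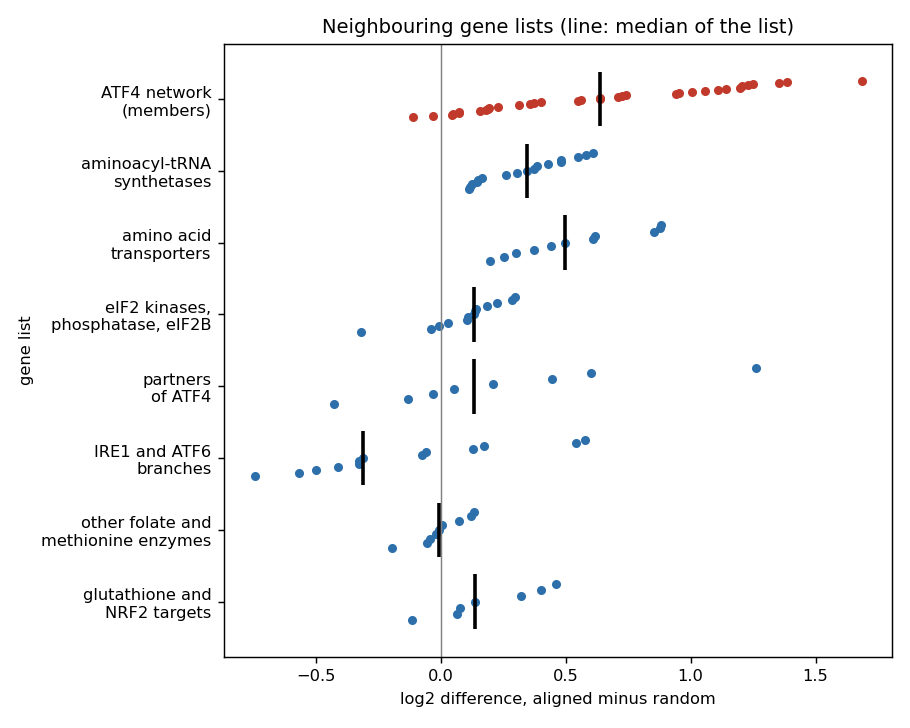
Log2 difference, aligned minus random, of each gene of the ATF4 network (red, top row) and of 7 neighbouring lists (blue), with a black line at the median of each list. The network has its median at 0.64, the transporters at 0.50 and the synthetases at 0.34, while the IRE1 and ATF6 branches have theirs at -0.31.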

How the data were processed

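Affymetrix HG-U133 Plus 2 arrays were used. The authors deposited log2 values for every probe set, which per the submitters' processing notes come from RMA. The version of RMA is not given in the sources used here. Total RNA, 10 µg per culture, was labelled with biotin, per the labels' protocols. RMA brings the arrays to 1 distribution, so differences are relative to the other genes, and detection calls were not used here.

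Of 54675 probe sets 62 were controls, and 27621 of the others lay above the array median on at least 3 of 6 arrays. Genes were named from the platform annotation where a probe set had 1 symbol (41091 probe sets, 41037 of them matched to RefSeq by gene identifier). A gene's brightest probe set by mean stood for it, taken from all of its probe sets for the 35 members and the 19775 genes on the array, and from those past the filter for the 12381 genes tested. Aligned was compared with random by limma 3.58.1 (R 4.3.3) with 4 residual degrees of freedom, and p-values were two-sided and adjusted over all genes tested with the Benjamini-Hochberg method. The precision is limited by 3 arrays per group, and the median standard error was 0.10. The code was tested on simulated data. Promoters were searched in Python 3.11.15 and figures drawn with matplotlib 3.10.9.

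The members, lists and tests were chosen with earlier results of these data known. Values by array are given for up to 3 members per role with the widest differences, for ATF4 and members whose groups did not overlap. Of each neighbouring list up to 4 genes with the smallest unadjusted p were named, and of the folate and methionine list TYMS alone. EIF2AK3, genes whose call changed with the replicate block and the probe sets of single genes were added after their values were seen. Some genes of those lists are not reported here.

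Replicate numbers 1 to 3 occur on both substrates. Deviations from the group means correlated by 0.369, 0.322 and 0.109 between arrays of the same number, all above a limit of 0.1, so the arrays were treated as pairs in an alternative fit, although aligned 2 and random 3 correlated by 0.188 and no label states what a number shares.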

Additional observations from a re-analysis of the deposited data

How the results depend on the processing

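The network's median difference stayed positive over the settings tried, between 0.35 with probe sets of shared-sequence suffixes left out, where 27 members remained, and 0.86 without aligned 1. The other settings were a filter at the 75th percentile or none, median centring of the arrays, a repeat of the quantile normalization, averaging the probe sets of a gene, a trended robust prior and the replicate number as a block. None gave a gene at an adjusted p under 0.05 in limma, nor did leaving out any array. With the suffixes left out, 12 members were at an unadjusted limma p under 0.05, beside 1006 of all 9395 genes tested. There 27 members were on the array, fewer than these were past the filter and tested, and several were read from other probe sets. With all probe sets the count was 21, and 18 with the replicate block. It was 3 to 25 with 1 array left out (16 without aligned 3). Over all genes that count was 1303, against 1687 with the block, 851 with the 75th percentile filter (fewer genes tested) and 624 to 2491 with 1 array left out. Members with all aligned arrays above the random ones numbered 11 to 25 with 1 array left out. The highest count came without aligned 1 and with fewer arrays to separate, and beyond the fewer arrays the cause was not tested. In the other settings the count lay between 8, with the suffixes left out, and 15, with the probe sets of a gene averaged. The share over all genes was not counted for these values, so nothing is read from them.

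With the suffixes left out, ASNS was at 0.20, GDF15 at 0.25, ATF3 at 0.20 and EIF2AK4 at 0.35, on other, dim probe sets that did not pass the filter. CBS was at 0.31 on another probe set, which passed it. The value of EIF2AK4 was also the median of the 27 members in that setting. The sign changed for 4 members with an array left out, each at under 0.2 in size: VLDLR, MTHFD1, MTHFD1L and ALDH18A1.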
